A study of Mus musculus with 12 samples.

Results

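Glutathione, peroxiredoxin and thioredoxin redox enzymes, with their NRF2-KEAP1 sensor and a few inducible genes, were compared between wild-type and null mouse prostate. The members were 57 of 23284 genes in the table, chosen by symbol: the cytosolic, kappa and microsomal glutathione transferases, glutathione peroxidases, peroxiredoxins, thioredoxins and their reductases, superoxide dismutases, and 10 genes by name (Cat, Gclc, Gclm, Gss, Gsr, Nqo1, Hmox1, Srxn1, Nfe2l2 and Keap1). The libraries are poly-A selected RNA from prostate tissue of 4-month-old mice, all on a mixed background of the strains 129/SvImJ and C57Bl/6J. There were 6 libraries from wild-type animals and 6 from animals homozygous for the null allele of one gene, called null here. The labels name no drug or other treatment, no dissected lobe and no pooling, and they tie no library to an animal. All p-values therefore rest on variation among libraries that may be technical in part.

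Superoxide dismutases turn superoxide into hydrogen peroxide, which catalase, glutathione peroxidases and peroxiredoxins then reduce. Glutathione peroxidases draw on glutathione, and most peroxiredoxins on thioredoxin, which thioredoxin reductases recharge with NADPH. Glutathione S-transferases attach glutathione to reactive compounds, and the transcription factor NRF2, held back by KEAP1, induces many of these genes under oxidative stress. The prostate epithelium secretes much protein through an oxidising pathway, and loss of redox enzymes has long been studied in prostate cancer.

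All values are on the log2 scale of the authors' deposited table, which is not known to be scaled by gene length, so levels of different genes are not compared. No read totals were part of that table, and the depth of each library is unknown. Undetected genes scattered around a floor: the median of 1123 olfactory receptor genes was 2.85, and 95% of them lay under 3.51. In bulk tissue, fewer cells of a type and less RNA per cell cannot be told apart. The prostate epithelium markers Pbsn, Hoxb13, Krt8 and Krt18 were detected in both groups, at means of 12.3 to 18.0 in wild-type libraries and 11.8 to 15.8 in null libraries. The 6 libraries of each genotype were split into 2 sets of 3, by the least spread within sets over 3633 genes averaging 10 or more. Smaller differences within sets than across them are therefore built in to some extent. In the wild type the sets were libraries 1 to 3 and libraries 4 to 6. In the null group, libraries 1, 2 and 5 made the first set, and the second held libraries 3, 4 and 6. Across 3633 genes averaging 10 or more, the median absolute difference between 2 wild-type libraries was 0.0388 to 0.0702 within a set and 0.103 to 0.129 across sets. Between null libraries these ranges were 0.0535 to 0.112 and 0.122 to 0.169. Each result is therefore given from a fit to 12 libraries and from a second fit to the means of the 4 sets. Markers of other tissues also moved. Among all tested genes, 28.0% were called higher and 25.1% lower over 12 libraries, and 7.58% and 6.96% over set means. Of 7 tested seminal vesicle genes, 7 were called higher in null prostate over 12 libraries and 4 over set means. Svs3a, Svs3b and Svs6, called in both fits, lay under 4 in all wild-type libraries. They met the filter of 4 or more in at least 6 libraries only through null libraries, which fixed their direction. In the wild-type mean, 4 of the list's 8 genes lay under the floor. The summed level of the list was 6.72 to 11.8 in wild-type and 16.7 to 20.4 in null libraries. All 8 myeloid genes were called lower over 12 libraries but only 1 over set means, with a summed level of 11.9 to 12.7 against 11.3 to 11.4. Of 7 lymphocyte genes 5 were called lower over 12 libraries and 2 over set means, with sums of 8.17 to 9.31 against 7.62 to 7.88. Of 3 tested urothelial genes 2 were called higher in both fits, with sums of 12.5 to 12.8 against 13.2 to 14.4. Of 6 adipocyte genes, 4 were called higher over 12 libraries and 2 over set means, 1 of them in both. Their sums were 6.76 to 8.62 against 6.87 to 11.0. Of 6 red cell genes 1 was tested, Alas2, which was 0.52 higher in null libraries and called in both fits. The globin genes Hba-a1, Hba-a2, Hbb-b1 and Hbb-b2 had means under 3.51 in both groups.

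Most redox enzymes that changed were lower in null prostate, while the secreted glutathione peroxidase Gpx3 rose the most. A gene was tested when it reached a value of 4 or more in at least 6 libraries, and was called at an adjusted p under 0.05 by limma, adjusted over all 15096 genes tested. Of the 57 members, 52 passed this filter, 49 of them at 4 or more in all 12 libraries. Gpx5, Gpx6, Gsta1, Gstm3 and Gstt4 did not pass, with means of 2.70 to 3.21 in either group. Of the 52, 7 were called higher and 25 lower, and 20 were not called. These 32 called members make up 61.5% of those tested, against 53.1% of all tested genes called (28.0% higher and 25.1% lower). By direction, 13.5% of the tested members were called higher and 48.1% lower. Their median difference was -0.15, and that of all tested genes was 0.012. Over set means 11 members were called, 21.2% of those tested, against 14.5% of all genes, and the same 11 were called in the same direction over 12 libraries. Of these 11, Gpx3 and Gstk1 were higher (background 7.58%), and Gpx1, Gpx2, Prdx6, Txnrd1, Gstt1, Gstt2, Gstt3, Gstm6 and Mgst2 were lower (background 6.96%). The 2 genotypes did not overlap in 22 members, 4 higher and 18 lower in null libraries, a share of 42.3% against 32.6% of all genes. Differences of at least 1, which is 2-fold, were called for 5 members, 9.62% of those tested, against 7.01% of all genes. Of the 5, Gpx3 was higher (background 2.99%), and Gpx2, Gstm6, Gsta2 and Mgst2 were lower (background 4.01%). Most called differences were small, with 17 of 32 under 0.5 in size.

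**Figure D1:**
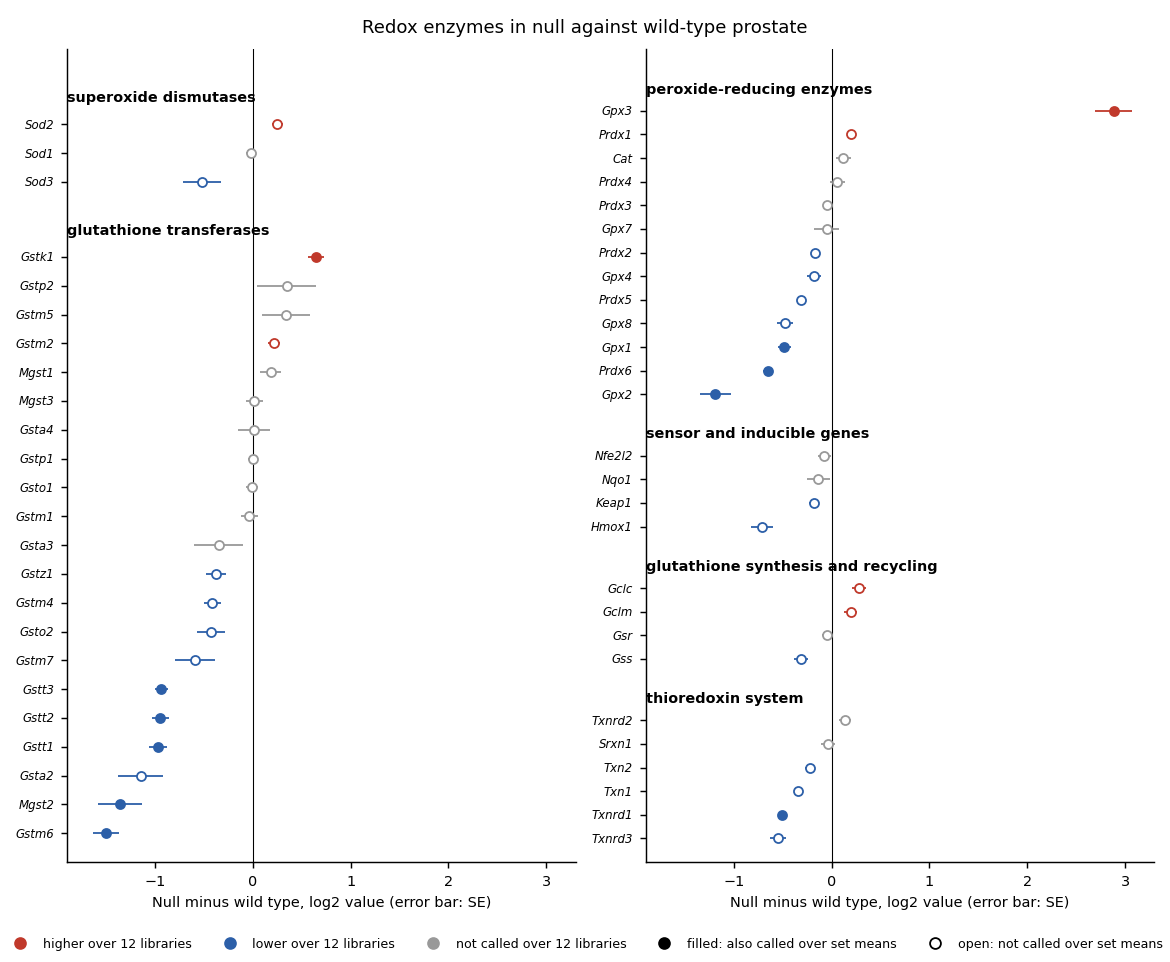
Difference of each tested member between null and wild-type libraries on the log2 scale, with its standard error, grouped by role; the pseudogene Gpx2-ps1 is not drawn. Red and blue mark members called higher or lower over 12 libraries, and filled points those also called over set means. Gpx3 stands apart at 2.88, and most filled points lie to the left of 0.

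The promoters of Gpx3, Gclm, Prdx1, Txnrd1, Gstt1 and Gstt3 are shown because these members changed and either hold or lack a match to the core of the antioxidant response element, the DNA motif bound by NRF2. The sequences come from RefSeq on build GRCm38.p6 and run 5′ to 3′ on the gene's strand, from 250 bases before to 50 bases after a transcription start. Capitals mark a match to TGACNNNGC or, on the other strand, GCNNNGTCA. The windows are chr11:54902604-54902903 on the plus strand for Gpx3, chr3:122245307-122245606 on the plus strand for Gclm, and chr4:116685349-116685648 on the plus strand for Prdx1. Those of the other 3 genes are chr10:82858956-82859255 on the plus strand for Txnrd1, chr10:75797682-75797981 on the minus strand for Gstt1, and chr10:75781373-75781672 on the minus strand for Gstt3. Txnrd1 has 3 windows in the table, of which this one holds a match, and Gstt3 has 2, neither with a match.
Gpx3: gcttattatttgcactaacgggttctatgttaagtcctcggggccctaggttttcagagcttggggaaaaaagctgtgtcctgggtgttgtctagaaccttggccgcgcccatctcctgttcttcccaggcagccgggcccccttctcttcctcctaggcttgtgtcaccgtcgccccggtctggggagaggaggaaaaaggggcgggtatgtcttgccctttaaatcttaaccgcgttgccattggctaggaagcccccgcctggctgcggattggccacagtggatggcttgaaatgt
Gclm: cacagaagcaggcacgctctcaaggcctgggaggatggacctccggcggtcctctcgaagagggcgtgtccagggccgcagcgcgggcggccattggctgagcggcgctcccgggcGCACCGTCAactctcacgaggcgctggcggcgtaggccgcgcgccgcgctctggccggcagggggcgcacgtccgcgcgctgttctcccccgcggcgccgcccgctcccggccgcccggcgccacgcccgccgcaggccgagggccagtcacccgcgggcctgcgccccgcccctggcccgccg
Prdx1: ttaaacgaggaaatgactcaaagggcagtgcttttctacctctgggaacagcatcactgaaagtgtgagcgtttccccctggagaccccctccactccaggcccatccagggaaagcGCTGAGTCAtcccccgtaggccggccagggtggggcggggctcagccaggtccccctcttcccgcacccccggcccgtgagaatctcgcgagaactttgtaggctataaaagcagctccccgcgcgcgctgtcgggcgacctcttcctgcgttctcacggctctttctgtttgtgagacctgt
Txnrd1: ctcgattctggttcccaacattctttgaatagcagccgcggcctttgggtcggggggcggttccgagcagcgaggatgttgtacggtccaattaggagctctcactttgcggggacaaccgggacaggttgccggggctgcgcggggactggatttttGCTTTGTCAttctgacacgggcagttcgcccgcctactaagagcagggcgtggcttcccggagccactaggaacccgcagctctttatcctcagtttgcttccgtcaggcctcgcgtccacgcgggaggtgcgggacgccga
Gstt1: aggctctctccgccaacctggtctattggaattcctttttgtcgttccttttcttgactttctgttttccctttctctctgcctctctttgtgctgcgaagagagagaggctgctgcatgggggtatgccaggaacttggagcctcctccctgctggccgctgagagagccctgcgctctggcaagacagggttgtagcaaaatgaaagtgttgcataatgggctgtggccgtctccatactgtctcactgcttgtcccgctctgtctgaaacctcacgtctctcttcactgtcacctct
Gstt3: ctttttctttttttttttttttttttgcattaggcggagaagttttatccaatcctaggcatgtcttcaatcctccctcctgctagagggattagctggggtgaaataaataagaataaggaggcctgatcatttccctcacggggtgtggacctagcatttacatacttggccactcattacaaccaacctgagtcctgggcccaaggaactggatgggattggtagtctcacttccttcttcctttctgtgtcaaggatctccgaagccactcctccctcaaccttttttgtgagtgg

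Relative to the start, the match lay at position -134 in Gclm, -133 in Prdx1 and -92 in Txnrd1, in each case on the other strand. Of 49 members with a promoter window, 10 held a match in at least 1 window, or 20.4%, against 14.0% of 27025 gene symbols treated in the same way. Matches were found in 2 of 6 called higher, 2 of 21 called lower and 6 of 17 tested but not called. The members with a match moved in no common direction: Gclm and Prdx1 were higher in null libraries, Txnrd1 and Gstm7 were lower, and Gsta3, Gstm5, Mgst1, Nfe2l2, Sod1 and Srxn1 were not called. The members without an entry were Gclc, Gpx2-ps1, Gsr, Gsta4, Gstt2, Hmox1, Prdx6 and Sod3. A match is a description of these letters and shows no binding.

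Among the peroxide-reducing enzymes, 2 of 13 tested members were higher and 7 were lower, and over set means 1 was higher and 3 were lower. Their called share was 69.2% over 12 libraries and 30.8% over set means, against 53.1% and 14.5% of all genes. Gpx3, the glutathione peroxidase secreted into extracellular fluid, lay at 13.07 at the lowest, 13.35 at the median and 13.63 at the highest of the wild-type libraries, and at 15.51, 16.24 and 16.89 in null libraries. All 6 null libraries lay above all 6 wild-type libraries. Gpx3 rose 7.38-fold, from 13.35 ± 0.28 (SD, n = 6) to 16.23 ± 0.44 (SD, n = 6), by 2.88 ± 0.19 (SE) with a limma adjusted p = 7.04e-08. The exact two-sided permutation p was 0.00216, the smallest that 6 against 6 libraries can give. Over set means it was called as well, and the difference stayed between 2.56 and 3.14 over 22 alternatives, with adjusted p from 8.86e-09 to 0.00232. Among null libraries, Gpx3 stood at 15.51, 16.89 and 16.40 in libraries 1, 2 and 5, where the summed seminal vesicle genes stood at 18.4, 20.4 and 19.7. In null libraries 3, 4 and 6 it stood at 16.13, 16.26 and 16.21, with sums of 16.7, 17.9 and 17.4. Within each null set the libraries thus had the same order by Gpx3 and by that sum, while the set means of Gpx3, 16.26 and 16.20, were close and those of the sum were 19.5 and 17.4. In wild-type libraries 1 to 3 and 4 to 6 the sums were 11.7 and 6.83, and Gpx3 stood at 13.09 and 13.60. The part of seminal vesicle tissue in the level of Gpx3 was not tested.

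Gpx2, the glutathione peroxidase known from gastrointestinal epithelium, fell. It lay at 5.82, 6.22 and 6.68 (lowest, median and highest) in wild-type libraries and at 4.80, 5.06 and 5.31 in null libraries, with no overlap. The difference was -1.19 ± 0.16 (SE), with adjusted p = 2.27e-05 over 12 libraries, and it was also called over set means. The wild-type sets stood apart, at 5.92 and 6.57, so the difference ranged from -1.51 to -0.86 over the alternatives. The processed pseudogene Gpx2-ps1 showed a difference of -0.0018 and was not called. Gpx1, the ubiquitous cytosolic enzyme, had a wild-type mean of 12.10 ± 0.069 (SD, n = 6) and a null mean of 11.61 ± 0.15 (SD, n = 6). It fell by 0.48 with adjusted p = 2.25e-05 and a call over set means, and no null library reached the wild-type range. Gpx8, a peroxidase of the endoplasmic reticulum, fell by 0.48 over 12 libraries but was not called over set means. Gpx4, which reduces lipid peroxides in membranes, differed by -0.18 with adjusted p = 0.0394. That call was lost when any one of wild-type libraries 1, 2 and 3 or null libraries 1, 3, 4 and 6 was left out, with adjusted p from 0.0508 to 0.0922 (0.00438 to 0.507 over all its alternatives). Gpx7 was not called, at -0.050.

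Of the 6 peroxiredoxins, 3 fell, 1 rose and 2 were not called over 12 libraries, and over set means 1 fell. The background for a change in either direction was 53.1% in the 12-library fit and 14.5% in the set-mean fit. For a fall it was 25.1% and 6.96%. Whether these 6 enzymes depart from that background was not tested. Prdx6, which carries a single catalytic cysteine and also acts on phospholipids, had very tight values, at 17.09, 17.14 and 17.23 in wild-type and 16.44, 16.52 and 16.53 in null libraries (lowest, median and highest). The genotypes did not overlap, and the gap between them was many times the spread within each. Prdx6 fell by 0.65 ± 0.050 (SE), which is 1.57-fold, with adjusted p = 8.46e-08 and an exact two-sided permutation p = 0.00216. Over set means its adjusted p was 0.0486, the highest of its alternatives, which went down to 3.94e-09. The mitochondrial and peroxisomal enzyme Prdx5 fell by 0.31 and the cytosolic Prdx2 by 0.17, while the cytosolic Prdx1 rose by 0.20. None of these 3 was called over set means, and after quantile normalization the difference of Prdx1 was 0.076 with adjusted p = 0.183 (0.000214 to 0.267 over its alternatives). Mitochondrial Prdx3 (-0.045) and the endoplasmic reticulum enzyme Prdx4 (0.059) were not called. Prdx3 was called lower after quantile normalization, at -0.13, after upper quartile scaling, at -0.12, and without null libraries 3, 4 and 6, at -0.11. Prdx4 was called higher without null libraries 1, 2 and 5, at 0.17. Catalase, the peroxisomal enzyme that splits hydrogen peroxide, was not called at a difference of 0.12, although without null libraries 1, 2 and 5 it was called higher, by 0.25.

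**Figure D2:**
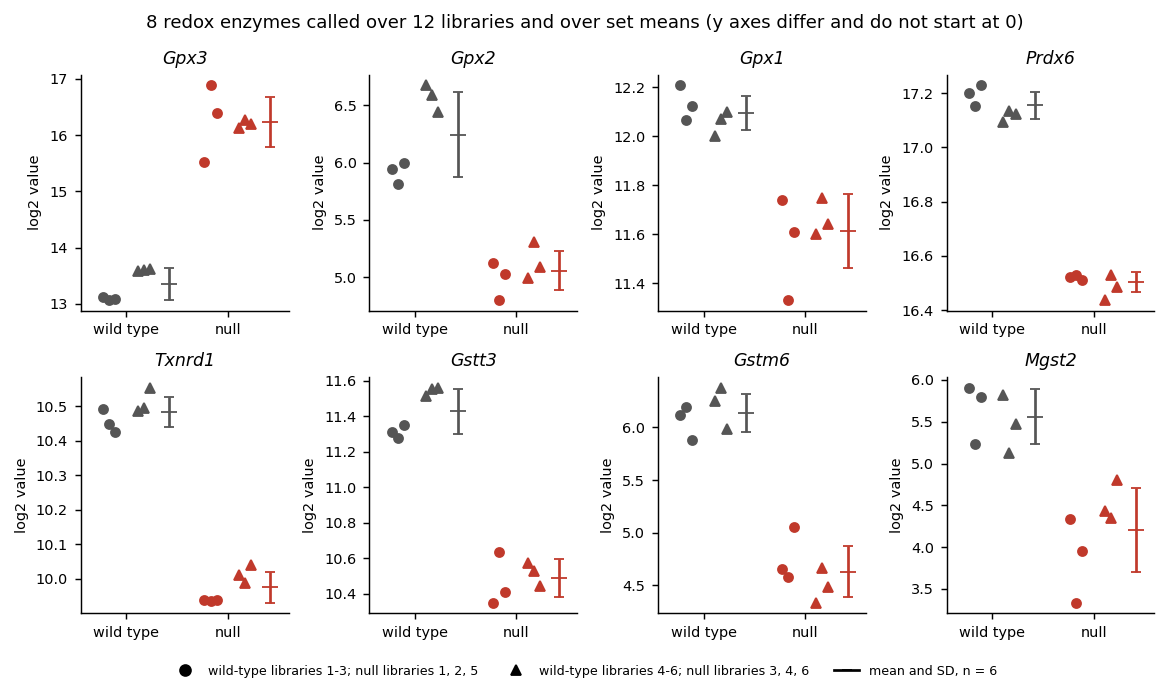
Log2 value of each library for 8 of the 11 members called in both fits, with mean and SD at the right of each group; circles and triangles mark the 2 sets of libraries within a genotype. The genotypes do not overlap in any of the 8 members, and Gpx2 and Gpx3 differ between the wild-type sets.

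In the thioredoxin system 4 of 6 members fell and 2 were not called, and over set means 1 fell. These shares were 66.7% and 16.7%. Among all genes, 53.1% and 14.5% were called in either direction, and 25.1% and 6.96% were called lower. Txnrd1, the cytosolic thioredoxin reductase, lay at 10.43, 10.49 and 10.55 in wild-type and at 9.94, 9.96 and 10.04 in null libraries (lowest, median and highest). The groups were tight and separate. Txnrd1 fell by 0.51 ± 0.037 (SE), or 1.42-fold, with adjusted p = 5.67e-08 and an exact two-sided permutation p = 0.00216, and it was also called over set means. Its substrate Txn1, cytosolic thioredoxin, lay at 11.17, 11.31 and 11.38 in wild-type and at 10.88, 10.93 and 11.06 in null libraries. Txn1 fell by 0.34 ± 0.048 (SE) with adjusted p = 3.48e-05 and no overlap, but was not called over set means. Txnrd3, a reductase that carries a fused glutaredoxin domain, fell by 0.55, and mitochondrial thioredoxin Txn2 fell by 0.22, both without overlap and neither called over set means. The mitochondrial reductase Txnrd2 differed by 0.14 and was not called over 12 libraries, though it was called higher without null library 4, at 0.18, and without null libraries 3, 4 and 6. Srxn1, sulfiredoxin, which repairs overoxidised peroxiredoxins, was not called at -0.034.

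Glutathione synthesis moved in both directions. Gclc and Gclm, the catalytic and modifier subunits of glutamate-cysteine ligase, which makes the first and rate-limiting bond of glutathione, rose by 0.28 and 0.20 over 12 libraries. Gss, glutathione synthetase, which adds glycine in the next step, lay at 10.36, 10.50 and 10.58 in wild-type and at 9.97, 10.16 and 10.42 in null libraries, with an overlap. It fell by 0.31 ± 0.072 (SE), with adjusted p = 0.00206 and an exact two-sided permutation p = 0.00649. Gsr, the reductase that recycles oxidised glutathione, was not called at -0.042. Over set means these 4 were not called, with limma adjusted p from 0.103 (Gss) to 0.783 (Gsr). Gclm was not called after either rescaling, at 0.13 both times. Without wild-type libraries 1 to 3 neither ligase subunit was called, at 0.20 for Gclc and 0.11 for Gclm, and the same held without null libraries 3, 4 and 6, at 0.16 and 0.13. Gss lost its call without wild-type libraries 4 to 6, at -0.22. Within each genotype both ligase subunits were higher in the second set, with Gclc at 9.85 and 10.03 in the wild-type sets and at 10.10 and 10.35 in the null sets.

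Of 21 tested glutathione transferases, 2 were higher and 10 lower, and over set means 1 was higher and 5 were lower. That made 57.1% called over 12 libraries and 28.6% over set means, against 53.1% and 14.5% of all genes. By direction over 12 libraries, 9.52% were higher and 47.6% lower, against 28.0% and 25.1%. The theta class fell together. Gstt3 lay at 11.28, 11.43 and 11.56 in wild-type and at 10.35, 10.49 and 10.64 in null libraries (lowest, median and highest), and fell by 0.94 ± 0.065 (SE) with adjusted p = 3.03e-08. Gstt1 fell by 0.97 ± 0.091 (SE) from 8.67 ± 0.13 (SD, n = 6), and Gstt2 by 0.94 ± 0.084 (SE) from 9.22 ± 0.16 (SD, n = 6). In each of these 3 genes all null libraries lay below all wild-type libraries, and each was called over set means. They are neighbours: in the RefSeq gene table Gstt3, Gstt1, Gstt4 and Gstt2 follow each other on chromosome 10 with no other protein-coding gene between them. Gstt4, in the same cluster, was near the floor in both groups, at 2.74 and 3.18. The 3 coding sequences are 64.4% to 76.3% identical, compared over the longest open reading frames of GENCODE transcripts.

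The mu class, whose 7 genes follow each other on chromosome 3 in the same way, did not move as a block. In chromosomal order the differences were 0.34 for Gstm5, -0.59 for Gstm7 and -1.50 for Gstm6, then 0.21 for Gstm2, -0.034 for Gstm1 and -0.42 for Gstm4, with untested Gstm3 in the middle. Over 12 libraries Gstm6, Gstm7 and Gstm4 fell, Gstm2 rose, and Gstm5 and Gstm1 were not called. Over set means only Gstm6 was called. Gstm2 also lost its call without wild-type libraries 1 to 3, at 0.14, and without null libraries 3, 4 and 6, at 0.15. Gstm6 lay at 5.88, 6.15 and 6.38 in wild-type and at 4.34, 4.62 and 5.06 in null libraries. It fell by 1.50 ± 0.13 (SE), or 2.83-fold, with adjusted p = 3.46e-07, an exact two-sided permutation p = 0.00216 and a call over set means. This was the largest fall among the 52 tested members over 12 libraries. Mu class genes share coding sequence, at 70.4% to 89.5% identity, so reads may have been split among them; the counting rule was not given in the sources used.

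**Figure D3:**
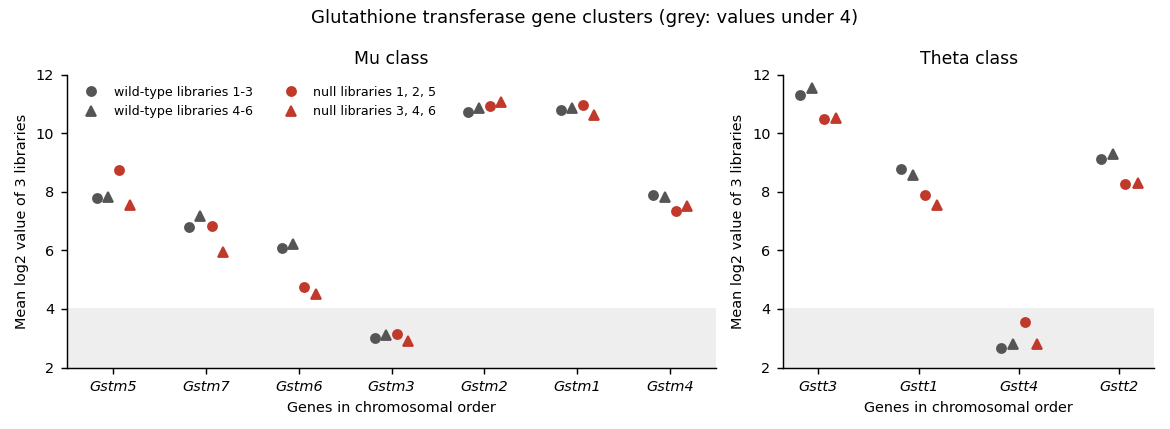
Mean log2 value of each set of 3 libraries for the mu and theta class genes in chromosomal order. Gstt3, Gstt1 and Gstt2 are lower in both null sets, while along the mu class cluster Gstm6 is lower in both null sets and Gstm5 and Gstm7 differ between the null sets.

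The other transferases were mixed. Mgst2, a microsomal enzyme that can make leukotriene C4, lay at 5.12, 5.63 and 5.91 in wild-type and at 3.34, 4.35 and 4.81 in null libraries. It fell by 1.35 ± 0.22 (SE) with adjusted p = 0.000147, no overlap and a call over set means, and 1 null library, at 3.34, lay under the 3.51 that marks the floor. Gstk1, the mitochondrial and peroxisomal kappa class enzyme, had a wild-type mean of 9.39 ± 0.085 (SD, n = 6) and a null mean of 10.03 ± 0.20 (SD, n = 6). It rose by 0.65 ± 0.080 (SE) with adjusted p = 1.05e-05, no overlap and a call over set means. Gsta2 lay at 4.90, 5.38 and 5.79 in wild-type and at 3.51, 4.27 and 4.98 in null libraries, overlapping in 1 null library, and fell by 1.15 ± 0.23 (SE) with adjusted p = 0.000707. It was not called over set means, and its coding sequence is 97.9% identical to that of Gsta1, so reads of the pair may have been divided between them. Gstz1, which acts in tyrosine breakdown, fell by 0.37, and the omega class gene Gsto2 by 0.43, neither called over set means. Gsto2 averaged 4.89 and 4.37 in the null sets. It lost its call without null library 3, at -0.37, without null libraries 3, 4 and 6, at -0.17, and without either wild-type set. Gsta3 (-0.35), Gsta4 (0.014), Gsto1 (-0.0061), Gstp1 (-0.0015), Gstp2 (0.35), Mgst1 (0.18) and Mgst3 (0.015) were not called. Gstp1 and Gstp2 are 98.1% identical in coding sequence. Mgst1 averaged 8.84 and 8.41 in the null sets. It was called higher without null library 4, at 0.27, and without null libraries 3, 4 and 6, at 0.40, while without null libraries 1, 2 and 5 its difference was -0.034. Without null libraries 1, 2 and 5, Gsta3 was called lower, at -0.74, and so was Gstm1, at -0.21. Gstz1 lost its call without that set, at -0.20, and without wild-type libraries 4 to 6, at -0.19.

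Among the superoxide dismutases, mitochondrial Sod2 rose by 0.25 and extracellular Sod3 fell by 0.52 over 12 libraries, and neither was called over set means. Cytosolic Sod1 lay at 11.70, 11.80 and 11.90 in wild-type and at 11.66, 11.78 and 11.92 in null libraries. These ranges lay on top of each other, and its difference of -0.015 ± 0.051 (SE) was not called (adjusted p = 0.823). None of these 3 genes separated the genotypes.

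Of the 4 sensor and inducible genes, 2 fell and 2 were not called over 12 libraries. That is 50%, against 53.1% of all genes called in either direction and 25.1% called lower. Nfe2l2, which encodes NRF2, was not called at -0.072, and Nqo1, a quinone reductase widely used as an NRF2 target, was not called at -0.13. Without null libraries 1, 2 and 5 Nfe2l2 was called lower, by 0.21. Keap1, which encodes the sensor that holds NRF2 back, lay at 10.53, 10.56 and 10.58 in wild-type and at 10.21, 10.37 and 10.52 in null libraries, a narrow but complete separation. It fell by 0.18 ± 0.049 (SE) with adjusted p = 0.00640, and without null libraries 1, 2 and 5 it was not called, at -0.096. Hmox1, heme oxygenase, fell by 0.71 ± 0.11 (SE) with adjusted p = 0.000101 and no overlap. Neither Keap1 nor Hmox1 was called over set means. Hmox1 is also made by macrophages, and the myeloid list was lower in null libraries. The wild-type sets, whose myeloid sums were 12.7 and 11.9, had Hmox1 at 7.04 and 7.01, and the null sets, with myeloid sums of 11.4 each, had it at 6.47 and 6.16. The part of myeloid cells in the fall of Hmox1 was not tested.

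Some members followed the sets of libraries more than the genotype. Of 52 tested members, 9 had null set means at least 0.5 apart and 5 had wild-type set means that far apart, against 10.1% and 9.79% of all tested genes. The median absolute difference between wild-type set means was 0.138 among members and 0.140 among all tested genes. Between null set means it was 0.154 and 0.160, so as a group the members stepped no more than other genes. Gstm5, the mu class gene known from testis and brain, lay at 8.59, 8.81 and 8.82 in null libraries 1, 2 and 5 and at 7.44, 7.53 and 7.65 in null libraries 3, 4 and 6, with wild-type libraries between at 7.73 to 7.88. It was not called over 12 libraries. Without null libraries 3, 4 and 6 it was called higher by 0.94 with adjusted p = 1.22e-06, and without null libraries 1, 2 and 5 it was called lower, at -0.26 with adjusted p = 0.0108. Over all its alternatives the adjusted p ran from 1.22e-06 to 0.605.

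Gstm7 and Sod3 showed a similar step. Sod3 averaged 6.95 in null libraries 1, 2 and 5, close to the 7.01 and 7.02 of the wild-type sets, and 6.04 in null libraries 3, 4 and 6. Gstm7 averaged 6.85 and 5.95 in the null sets. Without null libraries 3, 4 and 6 neither was called, at -0.065 for Sod3 and -0.14 for Gstm7. The call of Sod3 was also lost without any one of wild-type libraries 1, 4, 5 and 6 or null libraries 3, 4 and 6 (adjusted p from 0.0525 to 0.0773, and 9.84e-06 to 0.648 over all its alternatives). That of Gstm7 was lost without any one of wild-type libraries 4 and 5 or null libraries 3, 4 and 6 (adjusted p from 0.0523 to 0.0565, and 7.89e-05 to 0.420 over all its alternatives).

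The alpha class genes Gsta3 and Gsta4 stepped between sets in both genotypes. Gsta3 averaged 9.12 and 8.25 in the wild-type sets and 8.73 and 7.94 in the null sets. Gsta4 averaged 7.91 and 8.48 in the wild-type sets and, the other way round, 8.48 and 7.94 in the null sets. Marker sums also differed between the null sets: the seminal vesicle sum averaged 19.5 and 17.4, the urothelial sum 13.4 and 14.1, the smooth muscle sum 16.3 and 15.8 and the basal sum 11.2 and 11.8. Between genotypes, 4 of 5 basal genes were called higher over 12 libraries and 3 over set means, against 28.0% and 7.58% of all genes. The 5 smooth muscle genes, called in neither fit, differed by -0.22 to 0.16. The part of these marker tissues in the steps between sets was not tested.

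**Figure D4:**
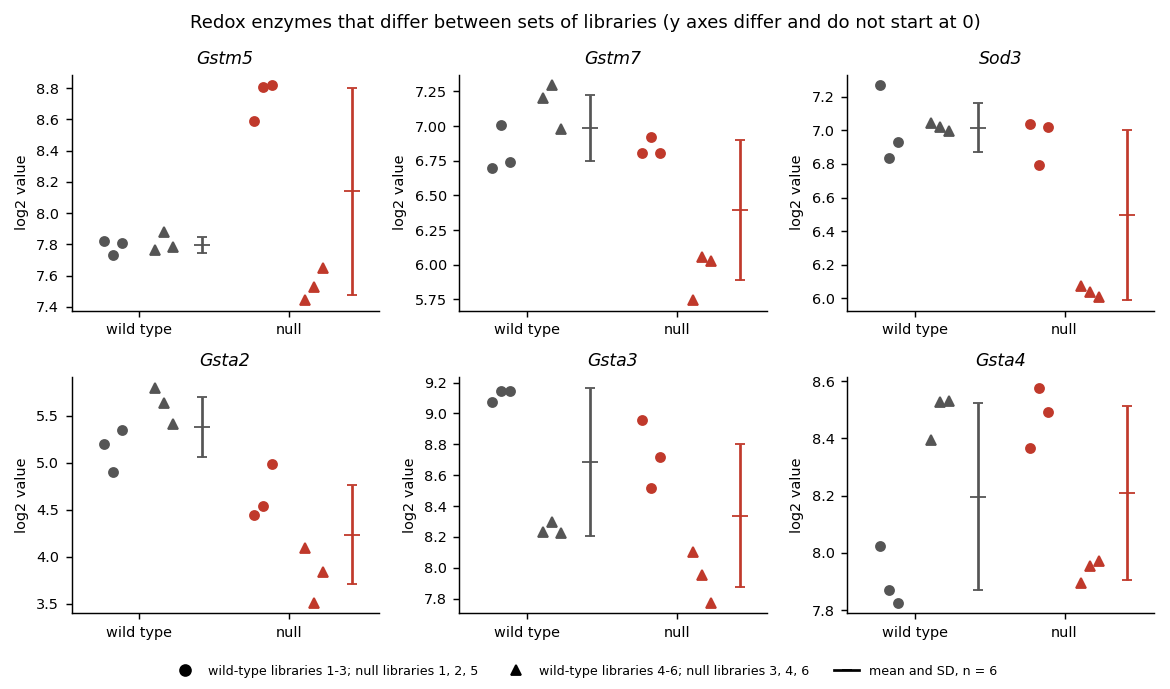
Log2 value of each library for 6 members whose null set means differ by at least 0.5, with mean and SD at the right of each group; circles and triangles mark the 2 sets of libraries within a genotype. In Gstm5 the wild-type libraries lie between the null sets, and in Sod3 null libraries 1, 2 and 5 lie within or near the wild-type range.

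The wider redox network was read from a list of 85 genes outside the members, of which 82 were in the table and 78 were tested. Of these, 16 were called higher and 37 lower over 12 libraries, 67.9% against the 53.1% of all genes, and 6 higher and 10 lower over set means, 20.5% against 14.5%. Their median difference was -0.16.

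Cystine uptake and NADPH supply held the largest share of calls over 12 libraries among the 5 groups of the list. There 4 of 15 genes were higher and 10 lower, with 1 higher and 4 lower over set means. That made 93.3% called over 12 libraries and 33.3% over set means, against 53.1% and 14.5% of all genes. Slc7a11, the cystine importer that feeds glutathione synthesis, fell by 0.90 and overlapped between genotypes. Slc1a4, a neutral amino acid carrier, fell by 0.85 and Me1, a cytosolic malic enzyme that makes NADPH, by 0.81. Cth, which makes cysteine from cystathionine, rose by 0.86 ± 0.063 (SE), with null libraries at 8.53 to 8.81 above all wild-type libraries at 7.65 to 7.87. All 4 genes were also called over set means.

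In glutathione turnover and thiol repair 4 of 18 tested genes rose and 5 fell, and over set means 2 rose. These shares of 50% and 11.1% lay under the 53.1% and 14.5% of all genes. Ggt1, the surface gamma-glutamyl transferase that starts the breakdown of extracellular glutathione, rose from 10.50 ± 0.24 (SD, n = 6) to 12.46 ± 0.14 (SD, n = 6), by 1.96 ± 0.10 (SE) with adjusted p = 2.36e-09. Ggt1 lay at 10.23 to 10.76 in wild-type and at 12.25 to 12.66 in null libraries, and was called over set means. Oplah, 5-oxoprolinase of the same cycle, rose by 0.56 and was also called over set means. The glutaredoxin gene Glrx rose by 0.52, and Glo1, glyoxalase, fell by 0.43, and neither was called over set means.

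Of 18 NRF2-linked genes and partners, 4 rose and 8 fell, with 1 higher and 2 lower over set means. The called shares were 66.7% and 16.7%, against 53.1% and 14.5% of all genes. Cbr3, a carbonyl reductase, averaged 8.13 in wild-type and 7.13 in null libraries and fell, and Blvrb, a biliverdin reductase, fell by 0.60, both called over set means. The efflux pump gene Abcc2 fell by 0.65 and the related pump gene Abcc1 rose by 0.45, neither called over set means. Of 14 genes for selenoproteins and their synthesis, 4 rose and 6 fell, with 2 higher and 3 lower over set means. Here the called shares were 71.4% and 35.7%, against the same shares of all genes. Sepp1, the secreted selenium carrier selenoprotein P, rose by 0.87, and the small intracellular selenoprotein gene Sepw1 fell by 0.89, Selm by 0.75 and Sepn1 by 0.53. All but Sepn1 were called over set means.

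Of 13 tested oxidant-producing enzymes, 8 fell and 5 were not called, and over set means 1 fell. Their called share was 61.5% over 12 libraries and 7.69% over set means. Among all genes, 53.1% and 14.5% were called in either direction, and 25.1% and 6.96% were called lower. Cybb, the catalytic subunit of the phagocyte NADPH oxidase, fell by 1.31 with no overlap and was called over set means. Ncf4, a cytosolic subunit of that oxidase, fell by 1.01, Rac2, its small GTPase, by 0.99 and Maoa, a monoamine oxidase, by 0.97, none of them called over set means. Cybb, Ncf4 and Rac2 are genes of blood cells, and the myeloid sum was lower in null libraries, at 11.3 to 11.4 against 11.9 to 12.7. Its part in these falls was not tested.

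**Figure D5:**
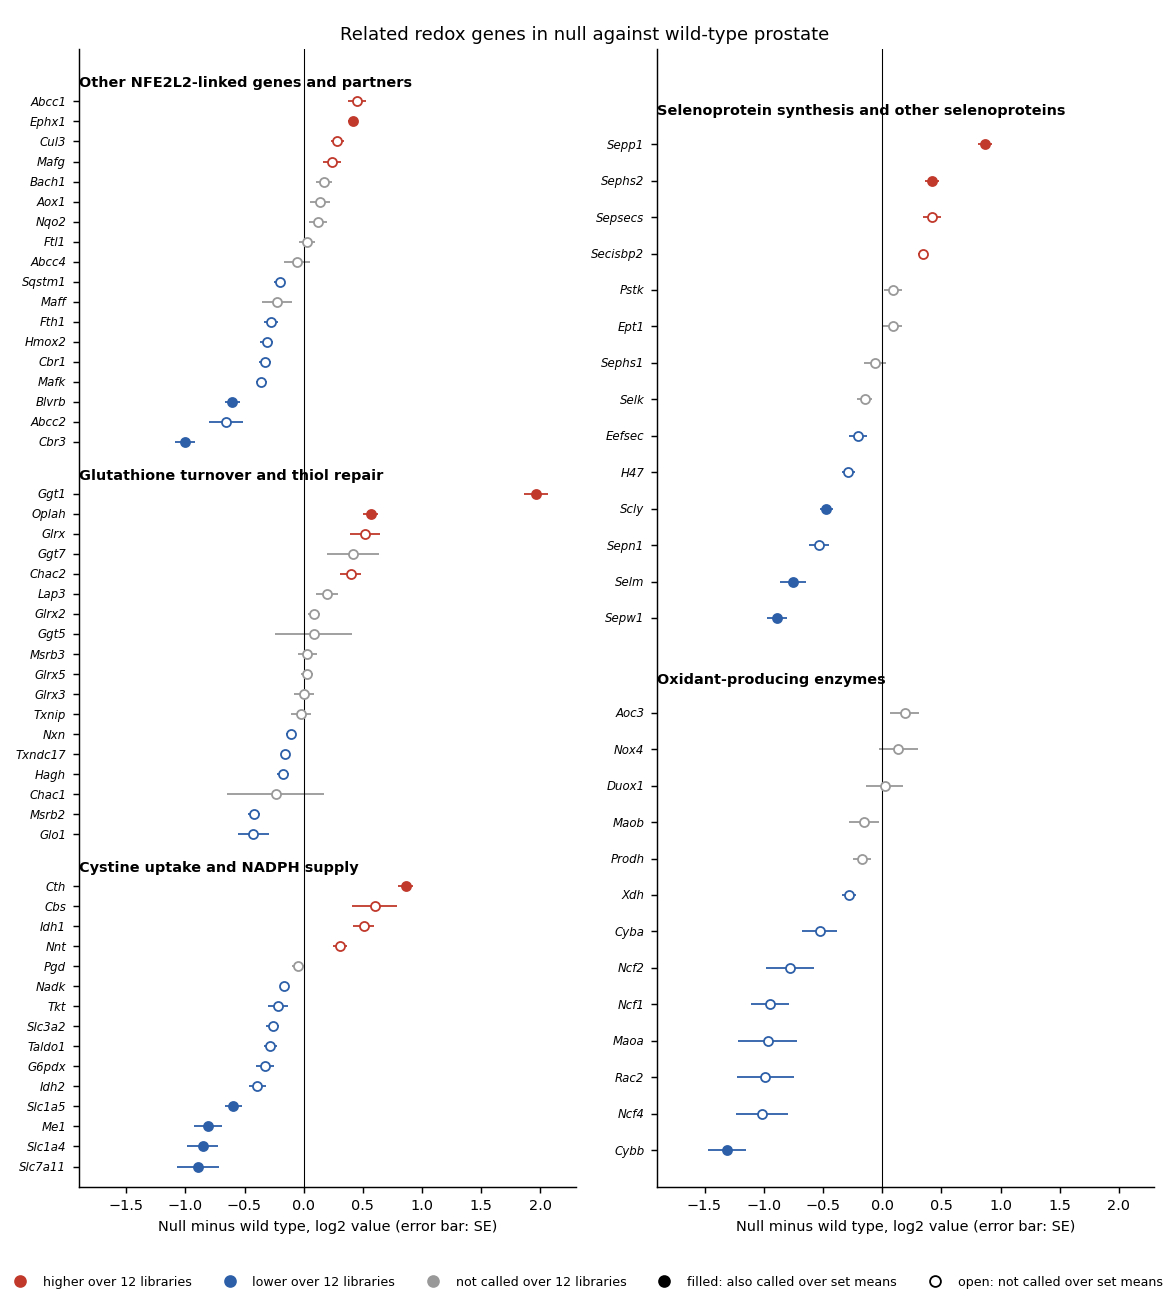
Difference of each tested related redox gene between null and wild-type libraries on the log2 scale, with its standard error, in 5 groups. Red and blue mark genes called higher or lower over 12 libraries, and filled points those also called over set means; Ggt1 lies farthest to the right at 1.96 and Cybb farthest to the left at -1.31.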

How the data were processed

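Poly-A selected libraries were made with an Illumina TruSeq kit, per the labels' protocols. Tools listed in the submitters' processing notes, without their roles, are Cufflinks 2.0.2, TopHat2 2.0.4, CASAVA 1.8.2 and DESeq, beside the build mm9. The authors deposited 1 table of log2 values from 1.07 to 21.6, and the sources used here do not say how they were transformed. With no counts, no count test was possible. Null and wild type, 6 libraries each, were compared on the deposited log2 values with limma 3.58.1 in R 4.3.3 (trend and robust moderation, Benjamini-Hochberg adjustment, threshold 0.05), with genotype as the only term and no pseudocount. Differences are null minus wild type. Sets are the split into triplets with the least spread within sets, out of 10 splits per genotype. The fit was tested on simulated data with independent noise in each library, so that test did not cover the sets. Marker sums are log2 of summed linear values. Members and lists were chosen with earlier results of these data known. Given by lowest, median and highest value are Gpx3, Prdx6, Txnrd1, called members with a difference of at least 1 in size and the highest member of each role. Related genes named are up to 4 called ones per group by size. Alternatives were 2 rescalings, 2 filters, limma without the trend and robust options, set means and left-out sets and libraries. The targeted gene is not reported here.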

Additional observations from a re-analysis of the deposited data

Results flagged for a closer look

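In 3 of 114 groups of 6 libraries examined over the 57 members, 1 library lay far from the other 5, by a gap over Dixon's critical value. Chance alone gives about 1 such group in 20. Gpx1 stood at 11.33 in null library 2 and at 11.60 to 11.75 in the other null libraries. Mgst3 stood at 9.06 in null library 4 and at 8.58 to 8.76 in the others. Txnrd2 stood at 8.96 in wild-type library 4 and at 9.09 to 9.15 in the others.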

How the results depend on the processing

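Of 52 tested members, the 11 called over set means kept their call and direction over all 22 alternatives. Another 11 were not called under any that could be run for them, and the sign of 10 of these varied. The call of the other 30 changed at least once. A filter at 5 removed Gpx2-ps1, Gsta2, Gsto2 and Gstp2. Over set means the counts were 2 members higher and 9 lower, and 6 related genes higher and 10 lower. Of the 12 members given by lowest, median and highest value, 7 were called over set means, against 11 over 12 libraries. Without wild-type libraries 1 to 3, 4 members were called higher. Gstm5 turned to -0.26 without null libraries 1, 2 and 5. With 1 library left out, members called higher ran from 7 to 9 and lower from 21 to 25. Related genes ran from 16 to 17 higher and from 34 to 38 lower. Called members among the 12 given by lowest, median and highest value stayed at 11. No paired analysis was possible because the labels give no numbers shared between genotypes. Depth is unknown, so low members such as Mgst2, Gsta2 and Gstp2 are limited by the floor.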

Other observations

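Selenoproteins were on both sides, in a grouping made after the values were seen. Gpx3 (2.88), Sepp1 (0.87) and Sephs2 (0.42), which makes selenophosphate for selenocysteine synthesis, were higher in null libraries and called over set means. Gpx1 (-0.48), Gpx2 (-1.19), Txnrd1 (-0.51), Sepw1 (-0.89) and Selm (-0.75) were lower and called over set means. Gpx4 and Txnrd3 were called lower over 12 libraries only, and Txnrd2 was not called. Among the genes of selenocysteine metabolism that are not selenoproteins, Sepsecs rose by 0.42 and Secisbp2 by 0.34 over 12 libraries only, and Eefsec fell by 0.21 over 12 libraries only. Scly, which frees selenium from selenocysteine, fell by 0.47 and was also called over set means.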
